A study of Caenorhabditis elegans with 32 samples.

Results

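Messenger RNA from 9 genes for Argonaute proteins of the 22G-RNA silencing pathways was followed through 32 sequencing libraries of the nematode Caenorhabditis elegans. The genes were taken by name from the deposited gene count table, and all 9 of them were found among its 46926 rows. They are hrde-1 (WBGene00007624), nrde-3 (WBGene00019862), wago-1 (WBGene00011061), ppw-1 (WBGene00004093), ppw-2 (WBGene00004094), sago-1 (WBGene00019666), sago-2 (WBGene00018921), rde-1 (WBGene00004323) and csr-1 (WBGene00017641). All 9 passed the filter on low counts in the lysates, where 15939 genes were tested, in the polysomes, where 15378 were tested, and over both fractions, where 16253 were tested.

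Argonautes are the proteins that carry a small RNA and use it to find a complementary transcript. In the worm, RNA-dependent RNA polymerases copy a targeted transcript into short antisense RNAs, named 22G-RNAs for their length and first base, and worm-specific Argonautes (WAGOs) take these up and silence the transcript. CSR-1 also binds 22G-RNAs, but those antisense to genes that the germline expresses, and it is known for protecting such genes. RDE-1 stands upstream: it binds the primary small RNAs cut from double-stranded RNA and is needed to start RNA interference. The study altered LOTR-1, a germ granule protein that carries both a LOTUS and a Tudor domain.

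All 4 strains carry a lotr-1 gene tagged with 3xFLAG and GFP, so the control is not an untagged worm. The wild-type control is strain DUP167 (allele sam85). The mutants are DUP207, called delta-LOTR-1 (sam117, an in-frame deletion of the full protein), DUP217, called delta-LOTUS (sam113, LOTUS domain deleted), and DUP185, called delta-Tudor (sam102, Tudor domain deleted). Each strain contributed 4 biological replicates of untreated, synchronised hermaphrodites at day 1 of adulthood, collected as whole animals. Every lysate gave 1 library of total polyadenylated RNA and 1 of the RNA from its polysomes, the transcripts loaded with several ribosomes. Each strain is 1 allele, and separate cultures are not described. The p-values therefore cover only the spread among the samples at hand. How much of that spread is technical was not tested, and the cell type marker sums given below differ between replicate numbers.

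Library totals ranged over 31.4 to 40.2 M counts for lysates and 26.99 to 36.2 M for polysomes. In whole worms, fewer cells of a type and less RNA per cell cannot be told apart. Counts are not divided by transcript length, so levels are compared between libraries and not between genes. The targeted gene lotr-1 was measured at 78.4, 80.8, 43.0 and 28.1 CPM (counts scaled to a common library size) in delta-LOTR-1 lysates 1 to 4, against 305, 329, 203 and 107 CPM in the wild type. In the polysomes it was at 112, 125, 63.3 and 41.6 CPM in the libraries labelled delta-LOTR-1 and at 111, 103, 55.8 and 40.6 CPM in the wild type. The lysates therefore carry the mark of the deletion at every replicate number and the polysome libraries do not. The other mutants had wild-type-like lotr-1 counts, which do not check their labels, since a domain deletion leaves most of the gene. sid-1, a double-stranded RNA channel gene, was lower than in wild type in both fractions of delta-LOTR-1, by a log2 change of -1.07 (SE 0.19, adjusted p = 0.00655) in the lysates and -1.03 (SE 0.21, adjusted p = 0.0284) in the polysomes, in edgeR's quasi-likelihood test, with replicate numbers entered as a block.

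Within a fraction, the replicate number, which the labels share between the strains, held more of the variation of each Argonaute mRNA than the strain did. hrde-1, which encodes a nuclear germline Argonaute needed for silencing that is inherited over generations, gave 889, 943, 461 and 196 CPM in wild-type lysates 1 to 4. The same gene gave 778, 931, 488 and 214 CPM in delta-LOTR-1, 1030.4, 941, 531 and 308 CPM in delta-LOTUS, and 1009, 943, 536 and 225 CPM in delta-Tudor. Replicates 1 and 2 were high and replicate 4 was low in each of the 4 strains, and the number groups did not overlap apart from replicates 1 and 2. The mean log2 difference between replicate 1 and replicate 4 was 1.98 ± 0.22 (SD, n = 4 strains), a 3.96-fold difference.

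nrde-3, whose product is a nuclear Argonaute best known from somatic cells, had the widest range of the 9. Its wild-type lysates held 38.1, 36.1, 12.1 and 5.54 CPM. Replicate 1 exceeded replicate 4 by 6.17-fold on average over the 4 strains. wago-1, which encodes a cytoplasmic germline Argonaute found in P granules, was at 867, 857, 482 and 299 CPM in wild-type lysates, a 2.69-fold average difference over the strains. rde-1 followed with 2.42-fold and ppw-1, a germline WAGO gene needed for the response to fed double-stranded RNA, with 1.44-fold.

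csr-1 was at 298, 326, 315 and 199 CPM in wild-type lysates, highest in replicate 2 and lowest in replicate 4. Over the strains its replicate 1 was 1.22-fold above replicate 4 in the lysates and 2.04-fold above it in the polysomes. ppw-2, which encodes a germline Argonaute that acts against transposons, was at 179.5, 203, 217 and 174 CPM in the wild type and showed a ratio of 1.01. Both SAGO genes, named for secondary Argonautes that work in somatic RNA interference, had a lower mean in replicate 1 than in replicate 4 in the lysates and a higher one in the polysomes. sago-1 stood at 0.856 of its replicate 4 level in the lysates, a log2 difference of -0.22 ± 0.34 (SD, n = 4 strains) that is within the spread, and delta-LOTUS went the other way with 28.5 against 26.4 CPM. sago-2 stood at 0.604 of it, with 5.47, 8.04, 9.75 and 9.17 CPM in wild-type lysates. In the polysomes the ratios were 1.21 for sago-1 and 1.45 for sago-2.

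The replicate number was called in the lysates for 9 of 9 members, in a background where it was called for 87.7% of the genes tested (edgeR, adjusted p under 0.05). In the polysomes it was called for 8 of 9, with ppw-2 missing the threshold at an adjusted p of 0.107, and 78.5% of genes were called. The members' counts lie near the background, and the number is a feature of these libraries as a whole. It accounted for 97.9% of the variation of wago-1 log2 CPM within the lysates, 97.0% of that of nrde-3 and 96.6% of that of hrde-1, while the strain accounted for 1.06%, 2.46% and 1.79%. For csr-1 the number held 62.3% and the strain 3.55%. Over all genes the median share held by the number was 86.5% in the lysates. rde-1 and sago-1 had the largest strain shares of the 9 in the lysates, 22.8% and 26.2%.

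**Figure D1:**
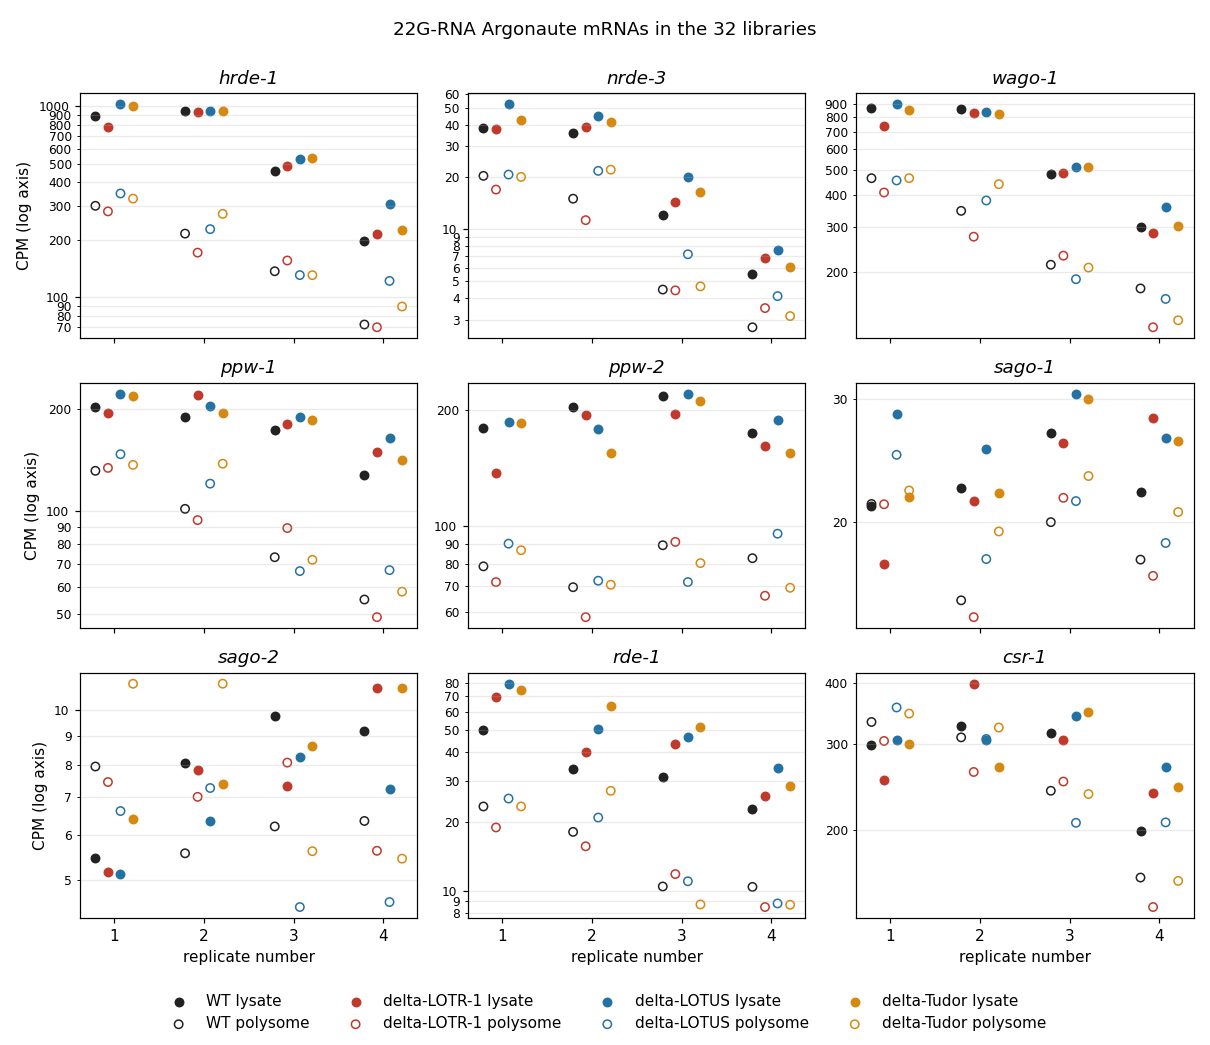
Level of each Argonaute mRNA in CPM (log axis, a separate range for each gene) against the replicate number. Filled points are lysates, open points polysome libraries, and colours are strains; hrde-1, nrde-3 and wago-1 fall from replicates 1 and 2 to replicate 4 in all strains, and hrde-1 polysome points lie below the lysate points of the same number.

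**Figure D2:**
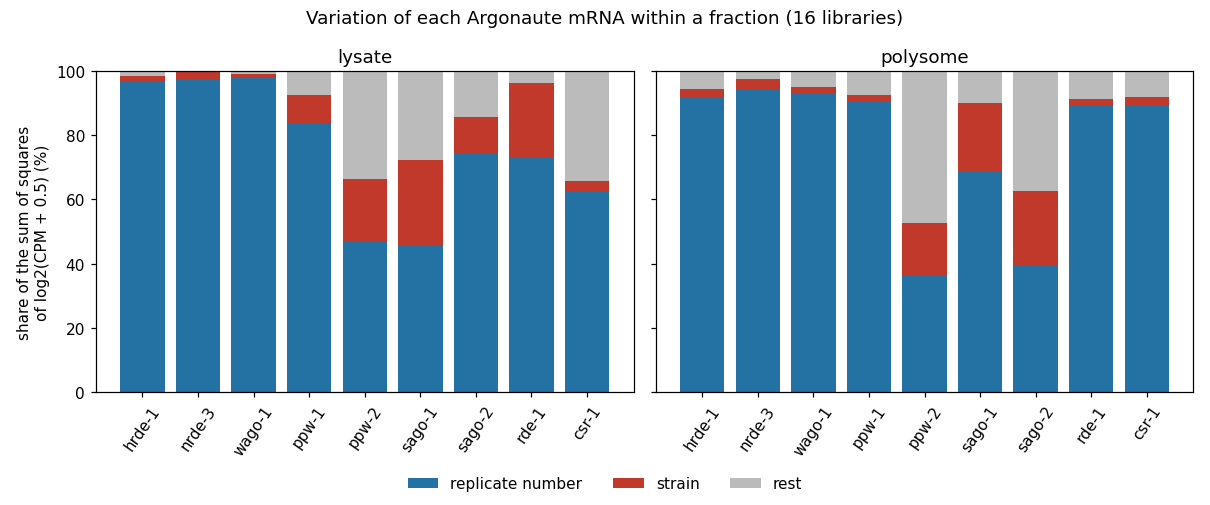
Share (%) of the sum of squares of log2(CPM + 0.5) over the 16 libraries of a fraction that goes with the replicate number, the strain and the rest, for each gene. The number holds 96.6% of hrde-1 in the lysates, and the strain share of rde-1 is 22.8% there.

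hrde-1 and csr-1 therefore stood in different proportion in different replicates. The ratio of hrde-1 to csr-1 counts, read only for its change because it is not corrected for length, was 3.20 ± 0.20 in the 4 replicate 1 lysates (SD). It was 2.96 ± 0.49 in replicate 2, 1.54 ± 0.06 in replicate 3 and 0.989 ± 0.111 in replicate 4. In the polysomes the same ratio was 0.942, 0.734, 0.594 and 0.528. Both fractions thus had their lowest ratio in replicate 4.

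Summed cell type markers moved with the number as well, though not to the same extent in every list. The summed level of 11 oocyte markers averaged 10028, 10373, 4677 and 1954 CPM in lysates 1 to 4. That of 15 germline markers averaged 3503, 3650, 2728 and 2012 CPM. Of the 10 sperm markers, 3 were at 0 in at least 1 library, and their sum averaged 41.4, 29.3, 281 and 386 CPM. Those of 8 muscle markers averaged 3249, 3245, 5281 and 5694 CPM, and those of 8 intestine markers 27073, 30037, 24491 and 15724 CPM. The sums of 8 hypodermis markers moved less, with averages of 4031, 3989, 4329 and 4376 CPM. Those of 8 neuron markers did too, with averages of 223, 222, 196 and 184 CPM. None of these sums was tested for its part in the Argonaute levels.

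Polysome levels relative to the lysate separated the 9 genes into 6 that were low in every pair of libraries and 3 that were not. The comparison asks how much of a transcript sits with several ribosomes, relative to all transcripts. Values over 16 lysates take the polysome libraries of delta-LOTR-1 as labelled, although their lotr-1 level was wild-type-like. In the wild type, hrde-1 had 301, 216, 137 and 72.0 CPM in polysomes 1 to 4, below each of its lysates with the same number. Averaged over 16 lysates, the log2 difference between polysomes and lysate was -1.73 ± 0.32 for hrde-1 (SD), -1.57 ± 0.41 for rde-1, -1.23 ± 0.23 for ppw-2, -1.18 ± 0.31 for nrde-3, -1.12 ± 0.23 for wago-1 and -1.01 ± 0.37 for ppw-1. These 6 genes were lower in the polysomes of 16 of 16 lysates, a pattern that 21.3% of all genes showed. The median gene had a difference of 0.04, and hrde-1 lay at percentile 2.60 of all genes.

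For csr-1 the mean difference was -0.23 ± 0.38, with polysomes lower in 10 of 16 lysates. sago-1 had -0.31 ± 0.26 and was lower in 13, and sago-2 had -0.17 ± 0.58 and was lower in 9. The signs followed the replicate number: csr-1 was higher in the polysomes of all 4 replicate 1 lysates and lower in those of all 8 lysates of replicates 3 and 4. In the wild type the csr-1 differences were 0.16, -0.08, -0.39 and -0.32.

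ppw-2 was the clearest case against the spread between libraries. Its wild-type lysates held 179.5, 203, 217 and 174 CPM and its wild-type polysomes 78.9, 69.7, 89.4 and 82.8 CPM. Over all strains its 16 polysome values lay below its 16 lysate values without overlap, which 3.82% of all genes showed. edgeR's test without the block called it in every strain, with a log2 change of -1.27 (SE 0.15, adjusted p = 5.76e-07) in the wild type.

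In the wild type the same test called 3 of 9 members, all lower in the polysomes: ppw-2, ppw-1 (-0.94, SE 0.31, adjusted p = 0.0351) and hrde-1 (-1.78, SE 0.60, adjusted p = 0.0365). The background was 19.3% of genes called and 9.72% called lower. Without wild-type replicate 2, 3 or 4 the count fell to 1. In each mutant, with the polysome libraries of delta-LOTR-1 taken as labelled, 4 of 9 were called lower, the same 3 and rde-1, where 23.3%, 23.6% and 24% of genes were called in delta-LOTR-1, delta-LOTUS and delta-Tudor, and 11.7%, 11.9% and 12.3% were called lower. Leaving out 1 replicate of the strain gave counts of 2 to 4 in delta-LOTR-1, 2 to 3 in delta-LOTUS and 2 in delta-Tudor.

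With the lysate as a block, a fit that compares the polysomes with the lysate they came from, 6 of 9 were called lower in the wild type, delta-LOTR-1 and delta-Tudor. They were hrde-1, rde-1, ppw-2, nrde-3, wago-1 and ppw-1. In delta-LOTUS 7 of 9 were called, with sago-1 added (-0.43, SE 0.14, adjusted p = 0.0112). This fit called 55.5% of genes in the wild type, with 26.6% of all genes lower, and 58.3%, 59.2% and 59.1% in delta-LOTR-1, delta-LOTUS and delta-Tudor. Those 6 remained called without any 1 of the 4 replicates of the strain. csr-1 and sago-2 were not called in any strain by edgeR with all replicates: in the wild type csr-1 had -0.16 (SE 0.18, adjusted p = 0.488) and sago-2 -0.30 (SE 0.30, adjusted p = 0.414). Without delta-LOTR-1 replicate 1, csr-1 was called there at an adjusted p of 0.021.

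**Figure D3:**
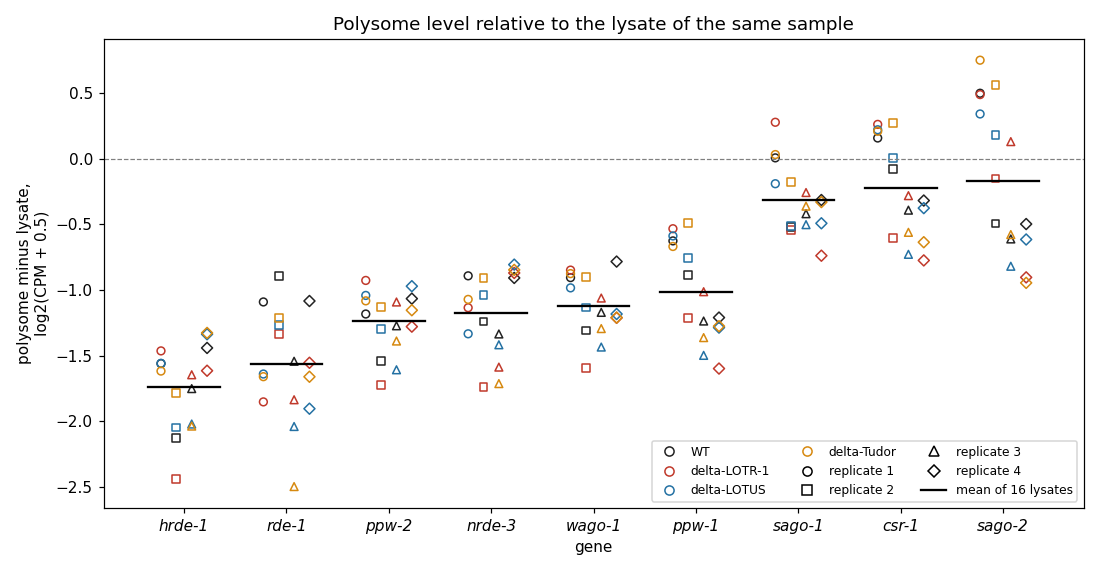
Difference in log2(CPM + 0.5) between polysomes and lysate for each of the 16 lysates, by gene. Colours are strains, symbols replicate numbers, and bars the mean of 16; the 6 genes from hrde-1 to ppw-1 lie below 0 throughout, and csr-1, sago-1 and sago-2 straddle it.

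csr-1 was compared with each other member within the same lysate, again with the polysome libraries of delta-LOTR-1 taken as labelled. Its polysome difference exceeded that of hrde-1 by 1.51 ± 0.44 (SD, n = 16), of rde-1 by 1.34, of ppw-2 by 1.01, of nrde-3 by 0.95, of wago-1 by 0.89 and of ppw-1 by 0.79, in 16 of 16 lysates each. A two-sided exact sign-flip permutation test gave p = 3.05e-05 for each of these 6, the smallest it can give, and an adjusted p of 4.07e-05 over 8 tests. sago-1 lay 0.09 below csr-1 (adjusted p = 0.208) and sago-2 0.06 above it (adjusted p = 0.43). The test flips each of the 16 lysates on its own, but lysates with the same number are not independent. These p-values are therefore smaller than the design warrants, and within 1 strain the smallest possible p is 0.125. The gap between csr-1 and ppw-1 was also the steadiest of the 36 pairs of members, 0.79 with an SD of 0.08 over the 16 lysates, a pair chosen after its values were seen.

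In the lysates rde-1 was the member that differed most between mutants and wild type, and it was called only in fits that account for the replicate number. Its wild-type lysates held 50.1, 33.8, 31.4 and 22.6 CPM. The delta-LOTUS lysates held 79.4, 50.7, 46.8 and 34.3 CPM, the delta-Tudor lysates 74.5, 63.7, 51.5 and 28.6 CPM, and the delta-LOTR-1 lysates 69.3, 40.04, 43.5 and 25.9 CPM. Each mutant lysate was above the wild-type lysate of the same number, 12 of 12, while the strains overlapped across numbers. The mean difference at matched numbers was 0.60 in delta-LOTUS, 0.63 in delta-Tudor and 0.34 in delta-LOTR-1 on the log2(CPM + 0.5) scale. The 3 mutants share the wild-type libraries, so the 12 comparisons are not independent. Above wild type at all 4 numbers were 20.3% of all genes in delta-LOTUS, 18.2% in delta-Tudor and 15.5% in delta-LOTR-1. The share above it in all 12 is not given here.

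Without the block no member was called in any mutant lysate, and none reached an unadjusted p of 0.05 in edgeR or in DESeq2. The background was 0.27% of genes called in delta-LOTR-1, 0.144% in delta-LOTUS and 0.0753% in delta-Tudor. The estimates of the 9 ranged from -0.19 to 0.36 in delta-LOTR-1, -0.28 to 0.59 in delta-LOTUS and -0.17 to 0.62 in delta-Tudor. The rde-1 change in delta-LOTUS was 0.59 with an SE of 0.35 and an approximate 95% interval from -0.10 to 1.27.

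With the replicate block, rde-1 rose by 0.59 in delta-LOTUS (SE 0.10, adjusted p = 0.00129) and by 0.60 in delta-Tudor (SE 0.10, adjusted p = 0.00252). In delta-LOTR-1 its change was 0.33 (SE 0.10, adjusted p = 0.0503). nrde-3 rose in delta-LOTUS by 0.47 (SE 0.08, adjusted p = 0.00197). Its delta-LOTUS lysates held 52.8, 45.1, 20.0 and 7.56 CPM, each above the wild-type lysate of the same number. These 3 calls held in 8 of 8 fits that left out 1 library of either strain. The members called were thus 0 of 9 in delta-LOTR-1, 2 of 9 in delta-LOTUS and 1 of 9 in delta-Tudor, against a background of 7.82%, 20.6% and 13.6% of genes called, or 2.46%, 9.47% and 5.7% called higher. The counts of members are near those shares, so nothing particular to the family is read from them.

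The remaining members stayed closer to the wild type. In the blocked lysate fits of delta-LOTUS, hrde-1 had 0.25 (SE 0.10, adjusted p = 0.0908), sago-1 0.25 (SE 0.10, adjusted p = 0.0905), ppw-1 0.16 (SE 0.07, adjusted p = 0.103) and sago-2 -0.27 (SE 0.12, adjusted p = 0.125). With rde-1 and nrde-3 included, 4 of 9 members in delta-LOTUS, 4 in delta-Tudor and 1 in delta-LOTR-1 were above wild type at all 4 numbers. Of all genes 20.3%, 18.2% and 15.5% were. In delta-Tudor hrde-1 was among them with a smallest log2 difference of only 0.0005. Below wild type at all 4 numbers were 1 of 9 in delta-LOTUS (sago-2), 0 in delta-Tudor and 1 in delta-LOTR-1 (ppw-2). Of all genes 18.2%, 14.8% and 14.2% were. Between mutants no member was called in the lysates. Without the block 0.176% of genes were called for delta-LOTUS against delta-LOTR-1, 0.0941% for delta-Tudor against delta-LOTR-1 and 0.119% for delta-LOTUS against delta-Tudor, and with it 1.36%, 0.527% and 0.847%. The nearest was nrde-3, higher in delta-LOTUS than in delta-LOTR-1 by 0.34 (SE 0.08, adjusted p = 0.0613 with the block). Summed hypodermis markers were 4607 ± 184 CPM in wild-type lysates, 4295 ± 189 in delta-LOTR-1, 4038 ± 502 in delta-LOTUS and 3784 ± 342 in delta-Tudor (SD, n = 4). In the other marker lists each mutant mean differed from the wild-type mean by less than the wild-type SD, which spans the replicate numbers. Germline sums, for example, were 3053 ± 780, 2869 ± 799, 3026 ± 729 and 2945 ± 780 CPM in the same order. The part of such marker values in the rde-1 levels was not tested.

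**Figure D4:**
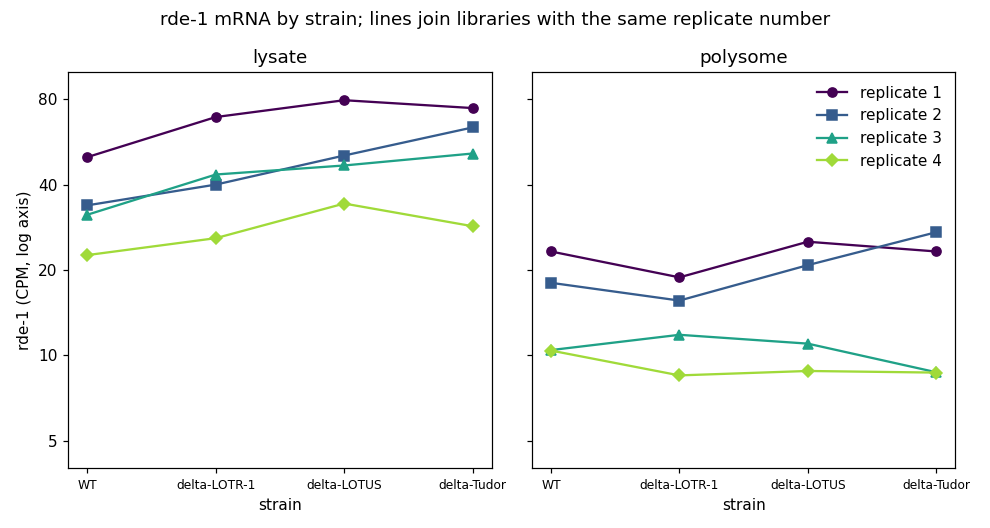
rde-1 level in CPM (log axis) by strain in lysates and polysomes, with lines joining libraries that share a replicate number. In the lysates every line starts lowest at the wild type; in the polysomes the lines cross and the wild type is the lowest in no replicate.

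In the polysomes rde-1 did not show that difference. The wild type held 23.3, 18.0, 10.4 and 10.4 CPM, delta-LOTUS 25.2, 20.8, 11.01 and 8.82 CPM, and delta-Tudor 23.3, 27.2, 8.73 and 8.70 CPM. The blocked estimates were 0.03 (approximate 95% interval -0.28 to 0.35) in delta-LOTUS, 0.04 (-0.28 to 0.36) in delta-Tudor and -0.15 (-0.47 to 0.17) in the libraries labelled delta-LOTR-1. No member was called in the polysomes of any mutant, with or without the block, where 0.221%, 0.0585% and 0.0975% of genes were called without it in delta-LOTR-1, delta-LOTUS and delta-Tudor, and 0.631%, 1.05% and 0.228% with it. None was called between the polysomes of the mutants either. There 0.137%, 0.104% and 0.0715% of genes were called without the block for delta-LOTUS against delta-LOTR-1, delta-Tudor against delta-LOTR-1 and delta-LOTUS against delta-Tudor, and 0.481%, 0.208% and 0.306% with it. nrde-3 had the largest polysome estimate in delta-LOTUS, 0.44 (SE 0.17, adjusted p = 0.232), with values of 20.7, 21.7, 7.17 and 4.11 CPM against 20.3, 14.997, 4.49 and 2.72 CPM.

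The change in polysome level relative to the lysate, translational efficiency, was tested as an interaction of strain and fraction. For rde-1 it was -0.57 (SE 0.24) in delta-LOTUS and -0.61 (SE 0.25) in delta-Tudor with the lysate as a block. The libraries labelled delta-LOTR-1 gave -0.51 (SE 0.24), a value that sets lysates low in lotr-1 against polysome libraries with a wild-type-like lotr-1 level. None passed the adjustment over 16253 genes, with adjusted p of 1.00 in delta-LOTUS, 0.981 in delta-Tudor and 1.00 in delta-LOTR-1, so a difference between the fractions is not shown. Without the block edgeR called no gene and no member for efficiency, 0% of genes, and no member reached an unadjusted p of 0.05. DESeq2 without the block also called no member, and it called 0.021%, 0.0336% and 0.0252% of genes in delta-LOTR-1, delta-LOTUS and delta-Tudor. With the block edgeR called 0.0554% of genes in delta-LOTR-1 and 0.00615% in delta-Tudor. For the other 8 members the delta-Tudor estimates with the block lay between -0.03 and 0.25, the latter for sago-2 (SE 0.42).

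**Figure D5:**
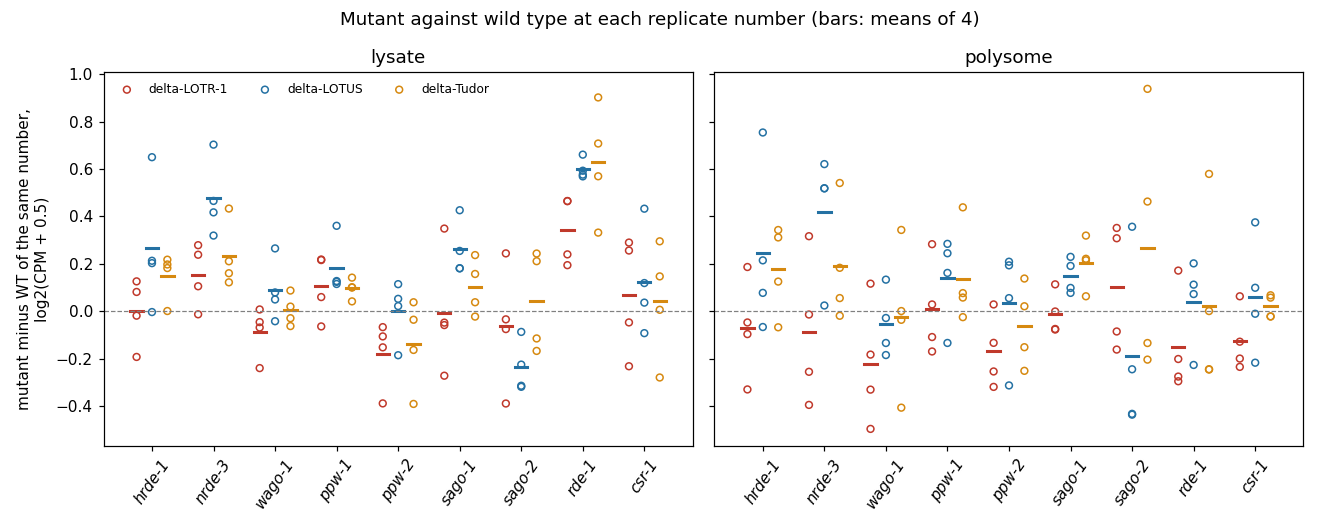
Difference in log2(CPM + 0.5) between each mutant library and the wild-type library of the same fraction and replicate number, by gene, with bars at the mean of 4. rde-1 points are above 0 for all 12 mutant lysates; in the polysomes every gene and mutant has points on both sides of 0, except nrde-3 and sago-1 in delta-LOTUS and sago-1 in delta-Tudor, which lie above it.

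Genes that work with these Argonautes were read in the same fits. Of 20 tested genes for making 22G-RNAs (RNA-dependent RNA polymerases, the Mutator complex and RDE factors), none was called in a mutant lysate without the block. With the block 3 rose in delta-LOTR-1, 10 rose in delta-LOTUS, and 7 rose and 1 fell in delta-Tudor. Over all genes tested 2.46%, 9.47% and 5.7% were called higher, and 5.36%, 11.1% and 7.89% lower. The median changes were 0.00, 0.28 and 0.17, while the medians over all genes tested lay between -0.01 and 0.01. rrf-1, a gene for an RNA-dependent RNA polymerase, had the highest value in all 3: 0.46 (adjusted p = 0.0218), 0.64 (adjusted p = 0.00154) and 0.69 (adjusted p = 0.0023). nyn-1 had the lowest in delta-Tudor and fell by 0.28 (adjusted p = 0.0191). In the polysomes 1 gene of the 20 was called in delta-LOTUS and in delta-Tudor and none in delta-LOTR-1. It was rde-11, a gene for an RNA interference factor, at 0.81 in delta-LOTUS (adjusted p = 0.00785) and 0.82 in delta-Tudor (adjusted p = 0.0111). Of all genes tested in the polysomes of these 2 mutants, 0.0585% and 0.0975% were called without the block and 1.05% and 0.228% with it.

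Of 8 genes listed for nuclear silencing with HRDE-1 and NRDE-3, with the block 1 rose and 1 fell in delta-LOTR-1 lysates. In delta-LOTUS 5 rose and in delta-Tudor 3 rose. The shares of all genes called higher in these fits, 2.46%, 9.47% and 5.7%, apply here and to the next pair of lists. So do the shares called lower, 5.36%, 11.1% and 7.89%. nrde-2, whose product acts with nuclear Argonautes, rose by 0.33 (adjusted p = 0.00878) in delta-LOTR-1 and by 0.44 (adjusted p = 0.0023) in delta-Tudor. hrde-2 fell by 0.23 in delta-LOTR-1 (adjusted p = 0.0419). Of 8 genes around the RDE-1 step, 1 fell in delta-LOTR-1, which was sid-1, 3 rose in delta-LOTUS and 2 rose in delta-Tudor. dcr-1, the gene for Dicer, which cuts double-stranded RNA, rose by 0.45 in delta-LOTUS (adjusted p = 0.00423) and by 0.44 in delta-Tudor (adjusted p = 0.00734). Of 10 tested Argonaute genes outside the 9, 2 rose in delta-LOTUS and none was called in the other mutants. C04F12.1 rose by 0.92 there (SE 0.09, adjusted p = 3.33e-05).

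The same lists were read for polysomes against lysate. In the wild type edgeR without the block called lower 10 of the 20 genes for making 22G-RNAs, with a median of -1.21, and 4 of the 10 other Argonaute genes, with a median of -0.95, beside a median of 0.07 over all genes and 9.72% of genes called lower. It called lower 2 of the 8 genes listed for nuclear silencing, with a median of -0.94, and none of the 8 genes around the RDE-1 step, with a median of -0.63. With the block, where 26.6% of all genes were called lower, the counts were 18, 6, 6 and 4, and sid-2 of the RDE-1 step was called higher. The lowest values were those of rde-10, at -2.44 (adjusted p = 9.53e-04), and alg-5, a microRNA Argonaute gene of the germline, at -2.53 (adjusted p = 0.00119). The 11 oocyte markers had a median of -1.40, with 0 called without the block and 11 with it, and the 15 germline markers one of -0.59, with 5 and 11 called lower, against the same 9.72% and 26.6% of genes. Whether the Argonaute differences go with those of germline transcripts as a class was not tested.

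The genes outside the 9 whose profile over the 32 libraries was nearest to each member were found by the root mean square difference of centred log2 CPM. hrde-1 was nearest to ani-2 (0.12), lag-1 and trcs-2, where the median gene lay 1.32 away. For wago-1 they were T07C4.3 (0.095), edc-4 and lin-5. For csr-1 they were cct-4 (0.13), acly-1 and pam-1. nrde-3 was nearest to zyg-11 (0.21), R07E4.5 and bet-2, and rde-1 to spr-1 (0.15), thoc-5 and B0001.2. ppw-1 was nearest to tpp-2, teg-4 and parg-1, ppw-2 to fbf-1, dao-5 and hoe-1, sago-1 to C34F6.10, lin-10 and mthf-1, and sago-2 to acs-22, uggt-1 and yars-1. Among the 9 themselves, hrde-1 lay nearest to wago-1 (0.38) and farthest from sago-2 (1.17). These distances share the replicate numbers and fractions of the same libraries and are a description.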

How the data were processed

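Per the labels' protocols, libraries of whole-worm polyadenylated RNA came from a stranded kit. The submitters' processing notes list Salmon and DESeq2 without a version. Genome build, annotation and whether counting used strand: not given in the sources used here. As deposited, the main table holds expected counts per gene that the authors estimated from the reads. Of its positive values 15.3% were not whole, and all were rounded before testing. A second table that the authors deposited holds replicate-adjusted values, treated here as a score because how they were adjusted is not given; it served only as an alternative. No gene lengths were used. Gene symbols are those of the deposited table.

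The members and gene lists were chosen with earlier results of these data known. Named genes were the members, lotr-1, the highest and lowest of each list, and the 3 nearest profiles of each member; dcr-1 and sid-1 belong to the list of the RDE-1 step.

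Tests used R 4.3.3, edgeR 4.0.16 (filterByExpr, TMM, quasi-likelihood, strain as the term, 16 libraries of a fraction or all 32 together, Benjamini-Hochberg adjusted p under 0.05 over all genes), DESeq2 1.42.0 and limma 3.58.1. The standard error is the absolute log2 change over the square root of F. CPM use TMM sizes over 32 libraries; differences at matched numbers are on log2(CPM + 0.5). The main fit holds no replicate term. Deviations from the group means correlated between same-numbered libraries (lysates r = 0.900 to 0.963, polysomes r = 0.783 to 0.933). Between other numbers r ranged from -0.962 to 0.930 in lysates and from -0.942 to 0.905 in polysomes, so the ranges overlap. The best-correlated library shared the number for 16 of 16 lysates and 15 of 16 polysome libraries. The numbers were therefore taken to pair the samples, and the replicate block is printed where it changes a call. The pipeline was tested on simulated data that held no replicate-number effect. The planted changes were larger than those of the members against the wild type. That test therefore does not show how the fits perform on changes and replicate effects like those here. Alternatives were the replicate block, DESeq2's size factors (RLE) within edgeR, no filter, DESeq2, the replicate-adjusted table with limma, and leaving out each replicate; DESeq2 with the block and the blocked fit without each library were added after seeing the data.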

Additional observations from a re-analysis of the deposited data

How the results depend on the processing

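Numbers of members called are given first. Against the wild type in the lysates the main count was 0 in each mutant. The replicate block gave 2 in delta-LOTUS and 1 in delta-Tudor, and DESeq2 with the replicate block gave 1 in delta-LOTR-1, 2 in delta-LOTUS and 1 in delta-Tudor. limma on the replicate-adjusted table gave 3, 6 and 4, and what its adjustment removed was not tested. With the replicate block edgeR called 7.82%, 20.6% and 13.6% of all genes in these comparisons. The shares of all genes called under RLE, DESeq2 with the block and the adjusted table are not given here. Nothing particular to the family is therefore read from those counts, here or below. Between delta-LOTUS and delta-LOTR-1 lysates both DESeq2 with the replicate block and the adjusted table gave 1. For polysomes against lysate, the wild type had 3, with 1 under RLE size factors, 6 under the replicate block, 7 under DESeq2 with the block, 8 in the adjusted table and 1 to 2 with a replicate left out. delta-LOTR-1 had 4, with 8 under both DESeq2 with the block and the adjusted table and 2 to 4 with a replicate left out. delta-LOTUS had 4, with 7 under the block and under DESeq2 with the block, 8 in the adjusted table and 2 to 3 with a replicate left out. delta-Tudor had 4, with 2 under RLE, 8 in the adjusted table and 2 without any 1 replicate. The replicate block gave 6 in both delta-LOTR-1 and delta-Tudor. DESeq2 without the block gave 4 in the wild type, 5 in delta-LOTR-1, 5 in delta-LOTUS and 3 in delta-Tudor. It called 18.9%, 22.5%, 22.7% and 21.9% of all genes there. For the replicate number in lysates DESeq2 called 8 of 9 members (highest adjusted p 0.0762) and 76.2% of all genes. Why the counts moved was not tested, except that leaving out a replicate leaves fewer samples. In the fit without the block, the counts of the mutant comparisons in lysates, polysomes and efficiency stayed at 0 with any 1 replicate left out. With the block, nrde-3 was called between delta-LOTUS and delta-LOTR-1 lysates in 2 of 8 such fits (lowest adjusted p 0.0353), and against the wild type rde-1 in delta-LOTR-1 and hrde-1 in delta-LOTUS in 1 of 8 each (0.0375 and 0.0343).

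Single genes reversed sign in the adjusted table for hrde-1 in delta-LOTR-1 (0.0942), ppw-2 in delta-LOTUS (0.0811), and wago-1 (0.11) and csr-1 (0.14) in delta-Tudor lysates, all estimates below 0 in the main fit. sago-2 in delta-Tudor polysomes against lysate ranged from -0.28 without replicate 1 to a reversed 0.31 without replicate 4. A reversal was counted where an estimate exceeded its SE; 292 of 2250 alternative estimates changed sign within it. The least counted members were nrde-3, with 86 counts in its lowest library, and sago-2, with 131.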
